A study of Homo sapiens with 2 samples.

Results

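The tumour necrosis factor (TNF) superfamily comprises the cytokine TWEAK, its relatives and the receptors they bind. Its genes were taken as every GENCODE protein-coding gene on chromosomes 1 to 22 and X whose symbol begins TNFSF or TNFRSF, together with 14 members known by other symbols. This gave 47 genes, 19 of ligands and 28 of receptors, out of 19970 protein-coding genes. p52 binding near them was read from ChIP-seq of MDA-MB-231 cells, an established line of triple-negative breast cancer (TNBC), with an antibody labelled NFKB2. The cells were starved for 8 h and then received TWEAK at 10 ng/ml for 48 h, renewed after 24 h, before fixation for 10 min in 1% formaldehyde and shearing to 200 to 500 bp. There was 1 group, TWEAK-treated, with 2 replicates, which the study's methods describe as biological replicates, though the labels do not say how they were separated. Only these TWEAK-treated libraries were analysed, so binding in the absence of TWEAK cannot be given.

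TNF superfamily ligands are mostly trimeric membrane proteins that can be shed, and they cluster the receptors they meet. Receptors with a death domain can recruit caspases, others bind TRAF adaptors and activate NF-κB, and decoy receptors take up ligand without signalling. A subset that includes Fn14, the TWEAK receptor, stabilises the kinase NIK, and NIK drives the processing of p100 to p52, which binds DNA at κB sites, often together with RELB.

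The deposited list of replicate 1 held 2007 summits, a summit being the 1 base of highest signal in a peak, and that of replicate 2 held 1467. Of these, 1802 and 1225 lay on chromosomes 1 to 22 and X and were used. The strength of a summit is given as the −log10 q of the authors, with its rank in its own list (rank 1 is the strongest). Read depth was unknown, and −log10 q rises with depth, so strengths were not compared between replicates. A summit was counted as shared when the other replicate had one within 200 bp. Distances run from a summit to the nearest annotated start site of the gene, on hg38.

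Of the 47 genes, 6 had p52 summits in both replicates at most 50 kb from a start site, which was 12.8% beside a background of 7.83% of all protein-coding genes. They were the ligand genes TNFSF12, TNFSF13, their readthrough gene TNFSF12-TNFSF13 and TNFSF8, and the receptor genes TNFRSF6B and TNFRSF19. TNFSF12, TNFSF13 and the readthrough gene lie side by side and were counted through the same summit pair, so the 6 genes stand for 4 separate loci. In replicate 1 alone 8 members were counted (17%, background 15.1%), and in replicate 2 alone 6 (12.8%, background 9.47%). When all protein-coding genes were weighted to the members' own distribution of neighbouring genes, the background in both replicates became 8.76%, or 4.12 of 47 genes. The difference between 6 and 4.12 genes was not tested, and the shared locus gives 3 of the 6.

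The share depended on the distance allowed. Within 1 kb, 0 of 47 members had a summit in both replicates, beside 0.766% of all genes, and 2 had one in replicate 1 (background 1.94%). Within 10 kb 3 members had a summit in both replicates (6.38%, background 2.76%), namely TNFSF12, TNFSF13 and TNFRSF6B. Within 100 kb there were 8 (17%, background 13.3%), and in replicate 1 alone the share of members at this distance, 23.4%, was below the 23.7% of all genes.

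**Figure D1:**
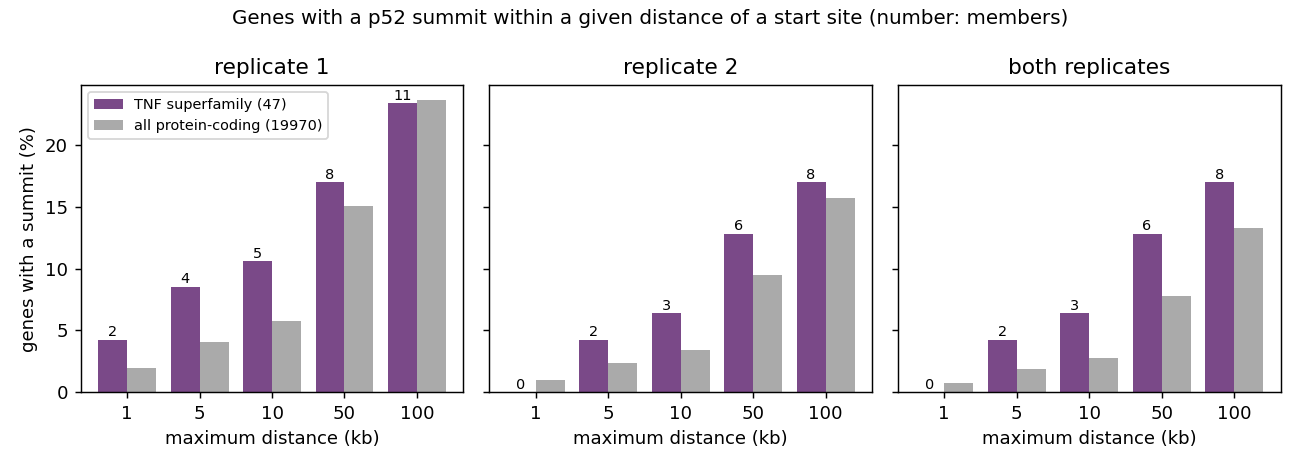
Percentage of genes with a p52 summit within 1, 5, 10, 50 or 100 kb of a start site, in replicate 1, in replicate 2 and in both, for the TNF superfamily (purple, with the number of genes above each bar) and for all 19970 protein-coding genes (grey). Both shares rise with distance, and in replicate 1 at 100 kb the members lie just below the background.

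Over all genes the share with a summit in both replicates rose with the number of neighbouring genes, whereas the members' counts followed no steady order. Members had a median of 2 other protein-coding genes within 50 kb, as did all genes. Among the 8 members with 8 or more neighbours, 4 had a summit in both replicates, beside 17.2% of all genes in such surroundings, and these 4, from 2 loci, were TNFSF12, TNFSF13, the readthrough gene and TNFRSF6B. Among the 16 members with no neighbour 2 had one, TNFSF8 and TNFRSF19, beside 5.77% of all such genes. Among the remaining 23 members, with 1 to 7 neighbours, 0 had one, beside 7.94% of all such genes. A summit near a member lay within 50 kb of a median of 9.5 protein-coding genes in replicate 1 and 10 in replicate 2, and the median over all summits with at least 1 protein-coding gene that near was 2 in each.

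By role, 4 of 19 ligand genes and 2 of 28 receptor genes had summits at most 50 kb away in both replicates (21.1% and 7.14%, beside 7.83% of all genes), and 3 of the 4 ligand genes were those of the shared chromosome 17 pair. TNFSF12 encodes TWEAK itself, the cytokine added to these cells, and TNFSF13 encodes APRIL, a survival factor of plasma cells. Both lie in tandem on the plus strand of chromosome 17, TNFSF12 at 7548508 to 7557890 and TNFSF13 at 7558292 to 7561608. Replicate 1 had its strongest summit there at 7561205 (−log10 q 18.1, rank 618) and replicate 2 at 7561243 (10.4, rank 674), 38 bp apart. This pair lay in an exon of TNFSF13, 2.42 and 2.46 kb downstream of a TNFSF13 start site and 5.17 and 5.21 kb downstream of the nearest TNFSF12 start site. The nearest start site of all was that of SENP3, a SUMO protease gene, at 714 and 676 bp. The link of the pair to TNFSF12 thus rested on distance alone.

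Replicate 1 had a second summit at this locus at 7558132 (10.3, rank 1006), 160 bp upstream of a TNFSF13 start site, and a weak one at 7578728 (5.85, rank 1479) near CD68 and EIF4A1. The first of these 2 lay nearer still to a start site of the long noncoding RNA gene ENSG00000276384, at 113 bp. Replicate 2 had no summit within 200 bp of either. The sequences under the first of these and under the shared pair follow on the plus strand of hg38, because each holds a κB match beside its summit. A κB match means 10 bases that read, on either strand, GGG, a purine, 2 bases of any kind, 2 pyrimidines and CC, and capitals mark it.
TNFSF13 promoter, chr17:7558082-7558182: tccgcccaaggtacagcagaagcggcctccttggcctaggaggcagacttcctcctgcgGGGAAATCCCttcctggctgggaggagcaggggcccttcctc
TNFSF13 exon, chr17:7561198-7561227: cctctgctagGGAAAACCCCtggttctcca
The promoter match began at base -151, with base 1 the 5′ end of TNFSF13, and its centre lay 14 bp from the replicate 1 summit. The exon match lay on the minus strand, with its centre 8 bp from the replicate 1 summit and 30 bp from that of replicate 2.

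TNFSF8 encodes the CD30 ligand, which acts between lymphocytes and cells that carry CD30. It lies on the minus strand of chromosome 9 at 114893343 to 114930595. The summits were at 114968879 in replicate 1 (31.4, rank 318) and at 114968875 in replicate 2 (28.1, rank 200), 4 bp apart and 38.3 kb upstream of a TNFSF8 start site. This was the strongest summit near any member in each list. TNFSF8 held the nearest protein-coding start site, although the start of the long noncoding RNA gene DELEC1 was only 705 and 709 bp away. A second shared pair lay at 69.8 kb (11.6 and 10.2).
TNFSF8 upstream summit, chr9:114968829-114968929: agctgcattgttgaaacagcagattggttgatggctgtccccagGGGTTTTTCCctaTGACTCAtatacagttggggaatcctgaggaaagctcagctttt
This sequence, shown because the locus has no κB match within 100 bp, carries in capitals a looser κB form (a purine at the third base and any 3 bases after it) and an AP-1 motif, searched as TGANTCA on both strands. The looser form was present within 100 bp of 60% of all summits of replicate 1 and 63.7% of replicate 2, and the AP-1 motif of 14.5% and 14.9%.

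**Figure D2:**
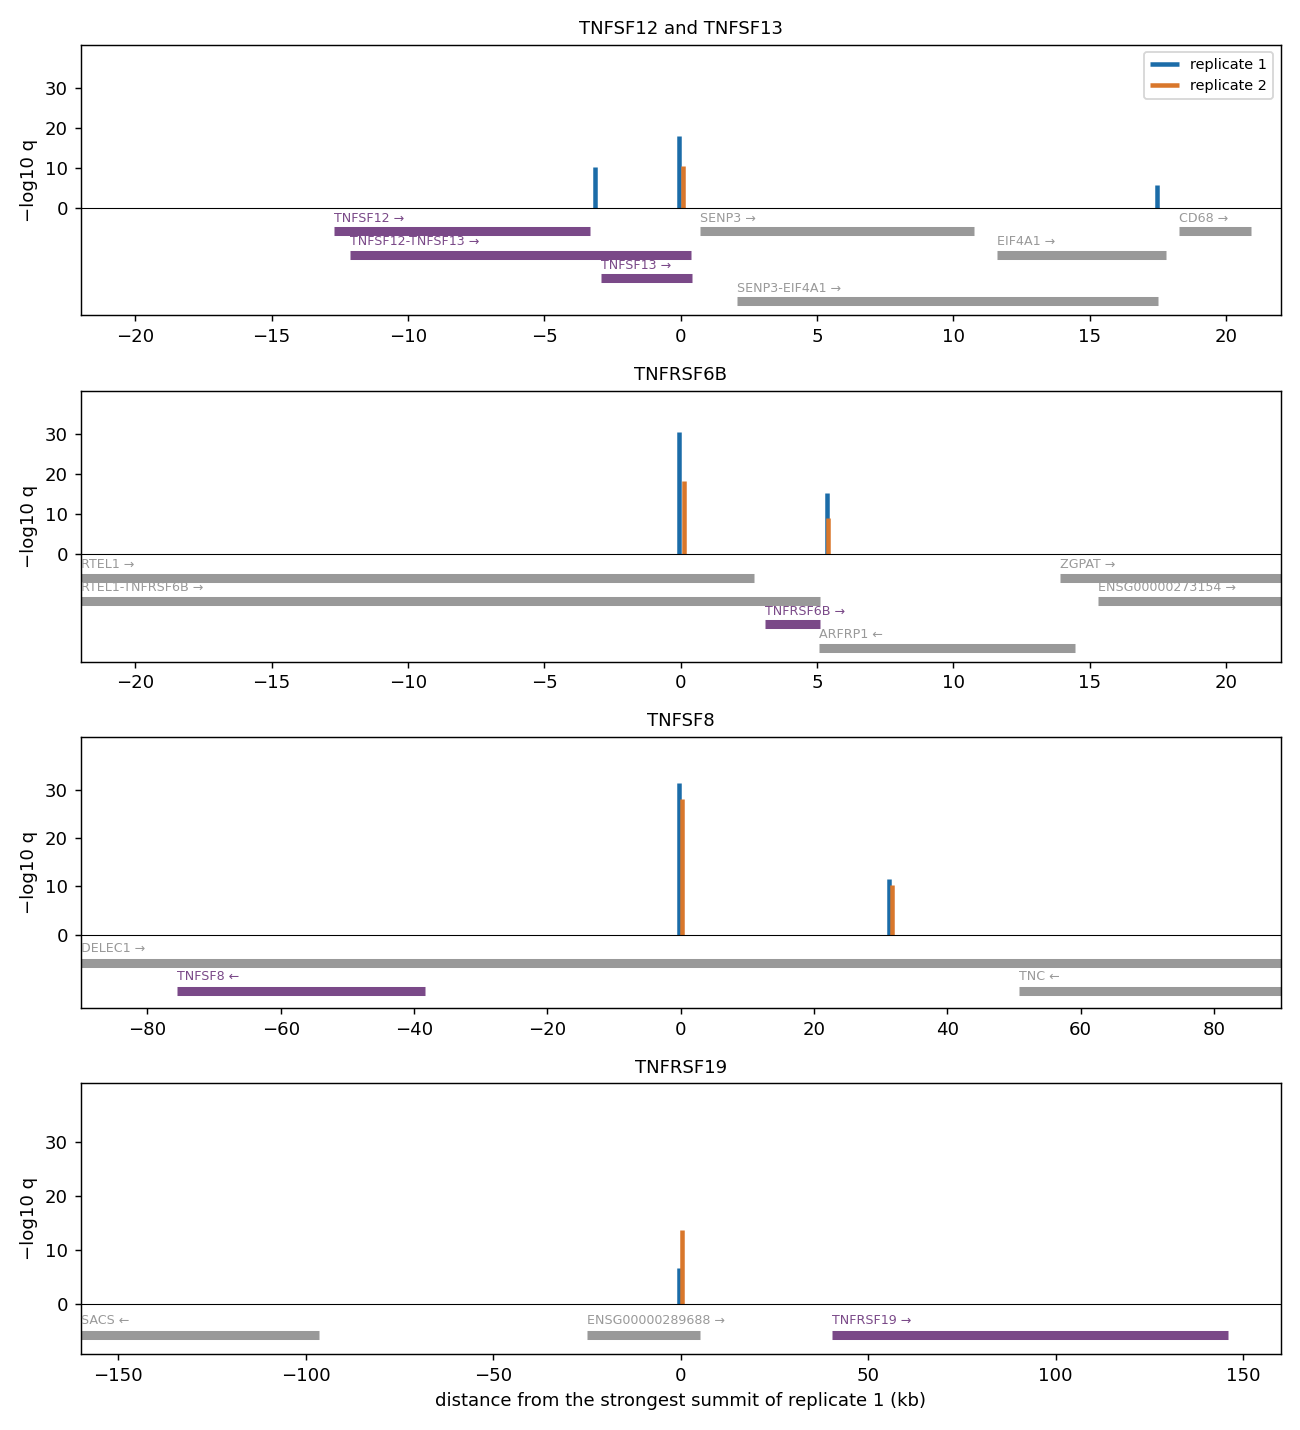
Summits at the 4 loci with a shared summit within 50 kb of a member: −log10 q (height) against the distance in kb from the strongest replicate 1 summit, for replicate 1 (blue) and replicate 2 (orange, drawn slightly to the right), above gene bodies with their direction (members purple, others grey). The TNFSF12 and TNFRSF6B loci are crowded with genes, whereas the TNFSF8 and TNFRSF19 summits lie 38.3 and 40.3 kb upstream of the member.

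TNFRSF6B encodes decoy receptor 3, a secreted protein that takes up FASL, LIGHT and TL1A. It lies on the plus strand of chromosome 20 at 63696652 to 63698684, and it had 2 shared pairs. The stronger pair was at 63693562 (30.5, rank 329) and 63693625 (18.3, rank 373), 63 bp apart, in an intron of the helicase gene RTEL1, 3.09 and 3.03 kb upstream of the TNFRSF6B start. The weaker pair was at 63698991 (15.2, rank 700) and 63698902 (9.19, rank 781), 89 bp apart, in an exon of ARFRP1 and 2.34 and 2.25 kb downstream of the start. The start site nearest to this weaker pair was that of ARFRP1, at 1310 and 1399 bp. The pairs differed in sequence, and one stretch of each is shown for this reason.
RTEL1 intron, chr20:63693512-63693612: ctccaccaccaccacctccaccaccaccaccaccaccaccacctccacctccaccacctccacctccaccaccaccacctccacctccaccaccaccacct
ARFRP1 exon, chr20:63699000-63699029: ccaactcacaGGGGATTTCCCgagagggga
The intron window is a simple repeat without a κB match within 100 bp. The bases within 100 bp of its replicate 1 summit were 66.7% C and held 0 G, and their 31-mers occurred a median of 2 times in the reference (3 times for replicate 2). Whether repeat content has a part in this pair was not tested. The exon match, with 2 overlapping κB frames in capitals, was within 100 bp of the summit of replicate 1 but not of replicate 2.

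TNFRSF19 encodes TROY, a receptor known from skin and the nervous system that lacks a death domain. It lies on the plus strand of chromosome 13 at 23570370 to 23676104, with no other protein-coding gene within 50 kb. Summits were at 23530104 in replicate 1 (6.72, rank 1353) and 23530115 in replicate 2 (13.7, rank 521), 11 bp apart and 40.3 kb upstream, in an exon of the long noncoding RNA gene ENSG00000289688. The pair was in the weaker 50% of the replicate 1 list.
TNFRSF19 upstream summit, chr13:23530054-23530154: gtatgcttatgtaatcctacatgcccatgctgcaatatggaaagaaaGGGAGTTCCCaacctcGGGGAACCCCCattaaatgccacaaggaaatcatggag
It is shown because it held 3 κB matches, 2 of them overlapping, the most at any member's summit. The 31-mers around the summit occurred a median of 2 times in the reference.

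Summits in 1 replicate only were found for 2 further members, both receptors. EDAR, the death-domain receptor of ectodysplasin in skin appendages, had a replicate 1 summit at chromosome 2, 108989258 (12.3, rank 855), 11 bp from a start site. It held the κB match in capitals in the sequence chr2:108989231-108989260, tccttgccgaGGGGCTTTCCctcattgcaa. The nearest summit of replicate 2 was 3823 kb away. TNFRSF12A, which encodes Fn14, had replicate 1 summits 45.0 kb downstream at chromosome 16, 3065347 (9.02, rank 1106), and 45.3 kb upstream at 2973176 (3.25, rank 1772). The first lay 8 bp from a start site of IL32 and the second 306 bp from that of PKMYT1. In replicate 2 the nearest summit was 1056 kb from TNFRSF12A. The receptor of the added cytokine thus had no summit nearer than 45.0 kb in either list.

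By function, 0 of 8 death-domain receptor genes, 1 of 4 decoy receptor genes (TNFRSF6B), 0 of 9 genes of receptors that feed the non-canonical pathway and 2 of 11 genes of their ligands (TNFSF12 and TNFSF8) carried summits of both lists within 50 kb, beside the 7.83% of all genes.

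The other 39 members, 15 ligand and 24 receptor genes, had no summit within 50 kb in either list, which was 83% of members beside 83.3% of all protein-coding genes. The ligand genes were TNF, LTA, LTB, CD40LG, CD70, FASLG, EDA, TNFSF4, TNFSF9, TNFSF10, TNFSF11, TNFSF13B, TNFSF14, TNFSF15 and TNFSF18. Their nearest summits lay between 117 and 2763 kb away in replicate 1 and between 142 and 13000 kb away in replicate 2. The death-domain receptor genes among the rest were FAS, NGFR, TNFRSF1A, TNFRSF10A, TNFRSF10B, TNFRSF21 and TNFRSF25, at 169 to 1166 kb and 196 to 2395 kb. The decoy receptor genes TNFRSF10C, TNFRSF10D and TNFRSF11B were at 116 to 1121 kb and 1071 to 3003 kb. The genes of non-canonical receptors were LTBR, CD40, CD27, TNFRSF1B, TNFRSF4, TNFRSF8, TNFRSF11A and TNFRSF13C, at 80.6 to 12032 kb and 80.6 to 14729 kb. TNFRSF9, TNFRSF13B, TNFRSF14, TNFRSF17, TNFRSF18 and EDA2R made up the remainder. Over all 47 members the median distance to the nearest summit was 220 kb in replicate 1 and 721 kb in replicate 2, and over all genes it was 363 and 572 kb. The members were nearer than the median gene in one list and farther in the other.

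**Figure D3:**
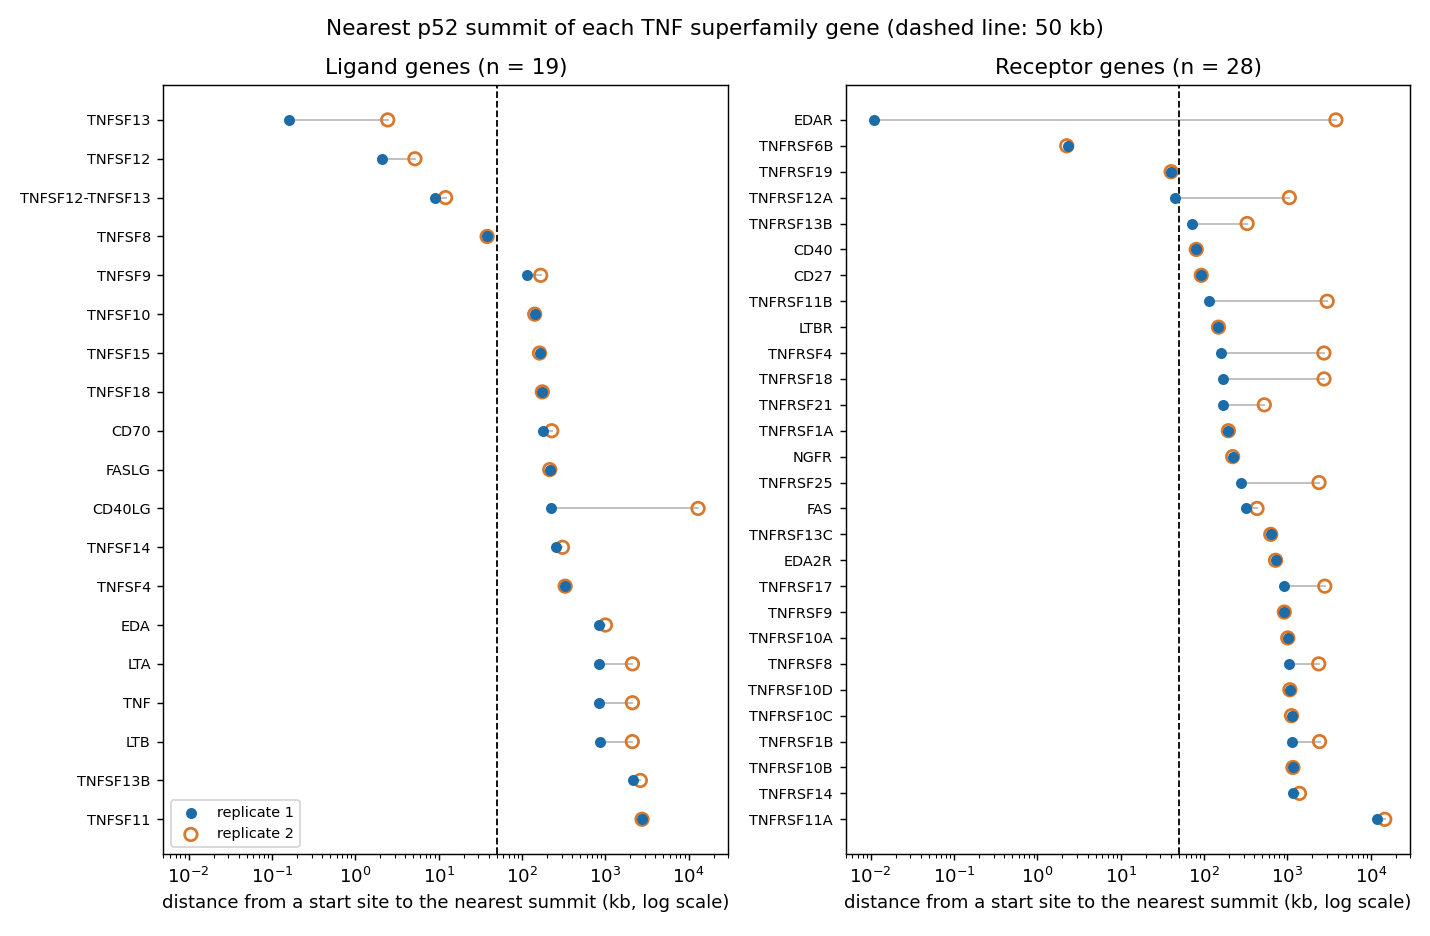
Distance in kb (log scale) from a start site to the nearest p52 summit for each ligand and receptor gene, with replicate 1 as filled blue points, replicate 2 as open orange circles and 50 kb as a dashed line. Points of both replicates lie left of the line for 6 genes, and EDAR and TNFRSF12A lie left of it in replicate 1 only.

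A few of these genes are described further, and they were chosen after their values were seen. FASLG, the ligand of the death receptor FAS, and TNFSF18 and TNFSF4, the ligands of GITR and OX40, are neighbours on chromosome 1 and shared 1 nearest summit. It lay between FASLG and TNFSF18, in an intron of the noncoding gene ENSG00000224228, at 172875043 in replicate 1 (62.4, rank 103) and 172875041 in replicate 2 (39.6, rank 118). These strengths exceeded those of every summit within 50 kb of a member. TNFSF18 was the nearest protein-coding gene at 176 kb, FASLG was at 216 kb and TNFSF4 at 331 kb. The sequence is shown because its overlapping κB frames, in capitals, lie on the summit.
Summit between FASLG and TNFSF18, chr1:172874993-172875093: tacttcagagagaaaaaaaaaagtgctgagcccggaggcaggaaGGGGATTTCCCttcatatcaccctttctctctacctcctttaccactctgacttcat

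CD40, a receptor of B cells and many other cells that activates the non-canonical pathway, had a shared pair at 80.6 kb in an intron of CDH22 (17.6 and 9.47), without a κB match. CD27, a receptor of lymphocytes, had one at 92.5 and 92.6 kb within 1 kb of a GAPDH start site (69.4 and 32.7), and the same pair was the nearest one to LTBR at 149 kb and to TNFRSF1A at 196 kb. TNFRSF13B had a summit at 71.8 kb in replicate 1 only. In each list 30 summits served as nearest summit of all 47 members, 9 of them for more than 1 member, so the members' distances are not independent of each other.

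TNF, LTA and LTB, which form a cluster on chromosome 6, were 848 to 859 kb from a summit in replicate 1 and 2113 to 2124 kb in replicate 2. Sequences at their start sites occurred a median of 1 time in the reference when its alternate sequences were left out and 7 or 8 times when they were counted. On the alternate copies, 6 of LTA, 6 of TNF and 7 of LTB, 0 had a summit within 50 kb, and the nearest was at 840 kb. At TNFSF14 the start site sequence occurred a median of 5 times even without alternates. Whether mapping had a part in the lack of summits at these genes was not tested.

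Members were also counted by holding the protein-coding start site nearest to a summit. This applied to 4 members in both replicates, TNFRSF19, TNFRSF6B, TNFSF8 and TNFSF18 (8.51%, background 4.32%). In replicate 1 it applied to 6, which added EDAR and TNFSF13. The share over all genes was not taken for replicate 1 alone, and the 4.32% is not its background. TNFSF12, TNFSF12-TNFSF13 and TNFRSF12A were within 50 kb of a summit in at least 1 list and held no nearest start site.

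In all, 10 summits of replicate 1 and 5 of replicate 2 lay within 50 kb of a member. Their −log10 q ran from 3.25 to 31.4 with a median of 11.3 in replicate 1, where the median over all summits was 10.3, and from 9.19 to 28.1 with a median of 13.7 in replicate 2, where it was 9.37. In replicate 1 their ranks ran from 318 to 1772 of 2007, and in replicate 2 from 200 to 781 of 1467. All 5 summits of replicate 2 were shared (100%, Wilson 95% interval 56.6 to 100), as were 5 of 10 of replicate 1 (50%, 23.7 to 76.3), and over all summits the shares were 69.8% and 47.4%. A κB match within 100 bp was found at 6 of 10 summits in replicate 1 (60%, 31.3 to 83.2) and at 2 of 5 in replicate 2 (40%, 11.8 to 76.9), and at 52.1% and 57.3% of all summits. These intervals cover counting error over few summits only, and each contains the share over all summits. An AP-1 motif was found at 2 of 10 and 1 of 5.

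**Figure D4:**
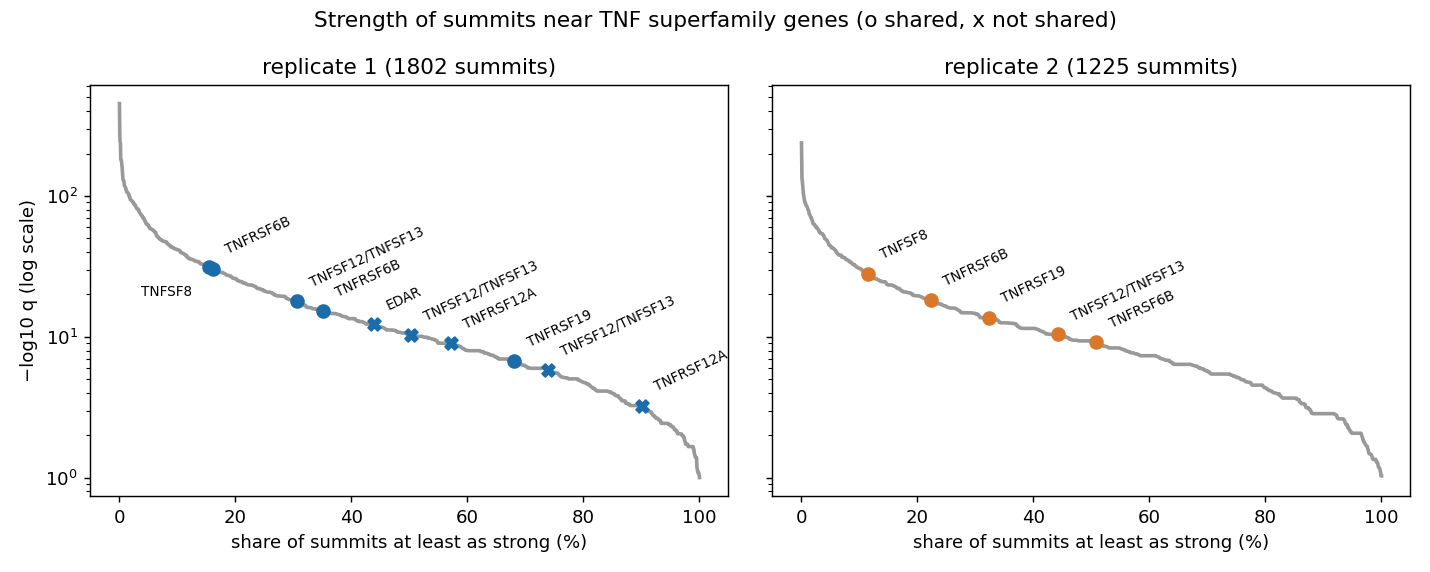
−log10 q (log scale) against the percentage of summits at least as strong, for all summits on chromosomes 1 to 22 and X (grey line; 1802 in replicate 1, 1225 in replicate 2) and for those within 50 kb of a TNF superfamily gene (points; crosses are not shared between replicates). The member summits rank between 318 and 1772 of the full list of 2007 in replicate 1, and between 200 and 781 of 1467 in replicate 2.

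Summits near members were more often near a start site of some gene in replicate 1 than summits in general, 7 of 10 (70%, 39.7 to 89.2) beside 40.7%, and 2 of 5 (40%, 11.8 to 76.9) beside 35.7% in replicate 2. Those that fell in a protein-coding exon or a processed pseudogene were 6 of 10 (60%, 31.3 to 83.2) beside 41.3% and 2 of 5 beside 34%. The median GC content within 100 bp of a summit was 60.9% and 58.7% near members and 51.7% and 51.2% over all summits. None of these differences was tested, and the interval of each share contained the value over all summits. The 2 sets are also unlike by selection. Every summit near a member lies within 50 kb of a protein-coding start site, whereas 1375 of 1802 and 885 of 1225 of all summits did. In replicate 1, 3 of the 10 came from the TNFSF12 locus and 2 from the TNFRSF12A locus, so they are not independent.

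A κB match in the promoter mostly came without a summit, for members as for all genes. In the 300 bases from 250 before to 50 after the 5′ end of a gene, 6 of 47 members had a match (12.8%), beside 12% of all protein-coding genes. The 6 were CD40, LTB, TNFSF13, TNFRSF10B, TNFRSF13C and TNFRSF25. Of these, 1 of 6 (16.7%), TNFSF13, had a summit within 1 kb in replicate 1, and 0 of 6 had one in both replicates. Over all such promoters the shares were 3.6% and 1.97%. The CD40 match, GGGAAACTCC, began at base -99 of the gene, and the LTB match, GGGACTTTCC, at base 12.

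The signalling genes downstream of the receptors were read in the same way, from a list of 17 adaptors, kinases and regulators. Of these 4 had summits at most 50 kb away in both lists (23.5%, beside 7.83% of all genes), and the list holds genes already known to carry strong summits in these data. NFKB2, the gene of p100 and p52, had summits 29 and 4 bp from a start site (149, rank 15, and 70.0, rank 43). RELB, the partner of p52, had summits at 117 and 110 bp (36.2 and 23.3), and TRAF1, an adaptor of receptors such as TNFRSF1B, at 655 bp in each (42.5 and 19.0). TRAF5, an adaptor of CD40 and LTBR, had summits at 39216 and 39247 bp (5.64 and 4.54). TRAF2 and TRAF4 had a summit in replicate 1 only. TRAF3, TRAF6, TRADD, FADD, RIPK1, CASP8, CFLAR, BIRC2, BIRC3, MAP3K14 (the gene of NIK) and CHUK had none at this distance in either list.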

How the data were processed

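p52 ChIP-seq of TWEAK-treated MDA-MB-231 cells was used in 2 replicates of 1 group. According to the study's methods and processing notes, the authors trimmed reads with Trimmomatic, used Bowtie2 for mapping to hg38, called peaks in MACS2 against input and took out blacklisted regions. Versions and thresholds were not given in the sources used here. The deposited lists hold 1 summit per peak with a value read as −log10 of the q-value from the column layout, since the lists have no header. The highest peak number was 4210 in replicate 1 and 4732 in replicate 2, beside 2007 and 1467 listed summits. Many numbered peaks are thus missing from both lists, and how far blacklisted regions account for them was not tested.

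Start sites were those of GENCODE release 44. Links, motif matches and 31-mer counts (mostly single-copy windows have more than 50% of 31-mers present no more than once) were computed in Python 3.11.15 with pandas 2.3.3, numpy 2.4.6, numba 0.67.0 and pysam 0.24.0. Links and motif matches were tested on simulated data, and 31-mer counts were not. Plots used matplotlib 3.10.9 and the genome was indexed with samtools 1.23.1. With 1 group no test between conditions was made. The weighted background averages the share of all genes over 6 classes of neighbour number with the members' weights. Members and lists were chosen with earlier results of these data known. Members with a summit within 50 kb are named with values, and the others without, except where stated.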

Additional observations from a re-analysis of the deposited data

Results flagged for a closer look

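Summits outside chromosomes 1 to 22 and X were not used in the comparisons. They numbered 205 in replicate 1 and 242 in replicate 2, and no control library was used here to set them against. On all alternate sequences of chromosome 6 together, which include those with copies of TNF, LTA and LTB, there were 9 and 5.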

How the results depend on the processing

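Of 77 alternative values, 57 stayed within 1.5 times the reported count, within its interval, or within 1 SD (1.68) of the reported median. The SD is that of the medians of the 2 replicates, whose depth is unknown, so for medians it is only a rough limit. For shares the intervals rest on 10 or 5 summits and are wide, for example 11.8 to 76.9, so few values could leave them. The settings also overlap, so the 57 values are not separate checks. Within 10 kb the count in both replicates was 3 (2 ligands, 1 receptor), which was 6.38% beside 2.76% of all genes. Replicate 1 had 5 (10.6%, all genes 5.77%) and replicate 2 had 3 (6.38%, all genes 3.44%). Within 100 kb there were 4 receptors. With protein-coding exons and processed pseudogenes left out, 3 members (1 ligand) remained in both replicates (6.38%, all genes 3.79%), because the TNFSF13 exon pair was removed. They were TNFSF8, TNFRSF19 and TNFRSF6B, and the receptors stayed through windows that were not mostly single-copy. Replicate 2 alone also had 3, with no share over all genes taken for it in this setting. The stronger 50% of each list, or mostly single-copy windows only (chosen after seeing the data), left 5 members each (10.6%, beside 3.69% and 5.93% of all genes), of which 1 was a receptor, TNFRSF6B. Leaving out a replicate gave 6 to 8 members, 4 ligands, 2 to 4 receptors, 0 to 2 members within 1 kb, 4 to 6 nearest genes and 4 to 6 signalling genes. The share over all genes rises too with 1 replicate. Within 50 kb it was 15.1% in replicate 1 and 9.47% in replicate 2, beside 7.83% in both. Within 1 kb it was 1.94% and 0.976%, beside 0.766% in both. For nearest genes it was not taken with 1 replicate. Within 5 kb, 2 members had a summit in both (4.26%, all genes 1.88%). By the nearest start site of any gene type 1 member, TNFRSF6B, was left of 4, through its repeat pair in the RTEL1 intron only. No share over all genes was taken for this setting. Among the stronger 50%, 80% of replicate 1 summits near members were shared, a share of few summits. It was not taken over all of the stronger 50%, so the 47.4% of the full list is not its background. The median −log10 q became 15.2 and 10.4 within 10 kb, and 20.4 and 18.3 without exon and pseudogene summits. Counting the readthrough gene out gave 5 members, and counting loci gave 4 (both chosen after seeing the data). No paired analysis was possible because there is only 1 group. Depth is unknown and numbered peaks are missing from both lists, so a missing summit does not show that p52 was absent.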
